A study of Mus musculus with 4 samples.

Results

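Of 20540 regions formed by merging the ATAC-seq peaks of 4 macrophage libraries, 2549 had a peak in every library and a midpoint away from gene ends. Peaks that overlapped by at least 1 bp were merged, and a merged region was kept when all 4 lists held a peak of it and its midpoint was more than 1 kb from both ends of every protein-coding gene span of mm10. These distal regions made up 12.4% of all merged regions (exact 95% interval 12.0 to 12.9) and 38.2% (37.0 to 39.4) of the 6672 regions found in all 4 lists. The other 4123 regions of all 4 lists had their midpoint within 1 kb of a gene end and are called gene-edge regions here. Measured from the whole region instead of its midpoint, 2441 regions of all 4 lists were more than 1 kb from gene ends. Some of the 2549 thus reach nearer to a gene end than 1 kb. The 2549 regions were chosen by the presence of a peak in every list and by distance to genes, so both are described and support nothing.

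ATAC-seq cuts accessible DNA with the transposase Tn5, which inserts sequencing adapters where nucleosomes and bound proteins leave the DNA free. In macrophages, accessible DNA away from promoters is known for its enhancers, which are opened by lineage factors such as PU.1 (the product of Spi1), C/EBP and AP-1 proteins. Signal-dependent factors such as STAT6, which IL-4 activates, and NF-kB bind largely at sites that the lineage factors have already opened. A distal region that is open in every library is a place where accessibility was found with and without IL-4 and with and without the creatine transporter.

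The 4 libraries were 1 of each group: Slc6a8-/y (KO) macrophages with IL-4, KO macrophages untreated, wild-type (WT) macrophages with IL-4 and WT macrophages untreated. Slc6a8, on chromosome X, encodes the creatine transporter, IL-4 was given at 10 ng/mL for 6 h, and all mice were C57BL/6. Every library was made from 50000 cells grown from bone marrow for 5 days with 10% M-CSF, the growth factor that turns marrow cells into macrophages. The labels do not give how the KO allele was made, how many mice were used or their age. With 1 library a group there is no replicate error, no test was made, and a statement about a library is not one about a condition. A region open in fewer cells and a region less open in each cell cannot be told apart in such pooled cells.

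The lists held 10443 peaks in KO IL-4, 13714 in KO untreated, 9930 in WT IL-4 and 17339 in WT untreated, and the distal regions of all 4 lists took 24.6%, 18.8%, 25.8% and 15.1% of these peaks in that order. Read depth is unknown, and peak number moves with it. Each peak carries the authors' score, from 50 to 3100, which was used only to describe and rank peaks within its own list. Over all 2549 regions the median score was 96.6 in KO IL-4, 124 in KO untreated, 92.0 in WT IL-4 and 158 in WT untreated, so raw scores are not compared between lists. None of the distal regions was assigned to Slc6a8, the targeted gene. The nearest lay 232571 bp from it, so these regions offer no check of the genotype.

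Some regions inside gene spans held an annotated transcript start, and the start windows of 5 of them are printed to show the DNA. They are from RefSeq for GRCm38.p6, run from 250 bases before the start to 50 after it along the strand of the gene, and lie wholly in a region. Dgkz (diacylglycerol kinase zeta) and Iqgap1 (an actin scaffold) were each given 3 regions, and Mef2a, Nfkb2 and Trim30a stand for the transcription factor, NF-kB and interferon lists. Capitals mark matches, on either strand, to the GC box GGGCGG (Dgkz and Iqgap1), the C/EBP motif TTNCGNAA (Iqgap1), the NF-kB motif, GGGA and CC with 4 bases between them (Mef2a and Nfkb2), and the IRF motif, GAAA and GAAA with 2 bases between them (Trim30a).
Dgkz start: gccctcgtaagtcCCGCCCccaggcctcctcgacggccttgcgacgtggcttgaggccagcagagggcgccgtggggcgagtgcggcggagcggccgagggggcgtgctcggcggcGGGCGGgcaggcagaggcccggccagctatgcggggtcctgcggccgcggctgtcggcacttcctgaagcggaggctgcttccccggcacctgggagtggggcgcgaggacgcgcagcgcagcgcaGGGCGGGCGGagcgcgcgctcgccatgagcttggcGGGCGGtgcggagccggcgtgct
Iqgap1 start: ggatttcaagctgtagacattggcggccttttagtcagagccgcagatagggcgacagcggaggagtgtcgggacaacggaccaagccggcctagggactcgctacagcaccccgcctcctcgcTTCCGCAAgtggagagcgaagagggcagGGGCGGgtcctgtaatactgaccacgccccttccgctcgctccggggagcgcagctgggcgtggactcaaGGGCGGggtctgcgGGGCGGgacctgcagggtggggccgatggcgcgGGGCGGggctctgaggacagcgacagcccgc
Mef2a start: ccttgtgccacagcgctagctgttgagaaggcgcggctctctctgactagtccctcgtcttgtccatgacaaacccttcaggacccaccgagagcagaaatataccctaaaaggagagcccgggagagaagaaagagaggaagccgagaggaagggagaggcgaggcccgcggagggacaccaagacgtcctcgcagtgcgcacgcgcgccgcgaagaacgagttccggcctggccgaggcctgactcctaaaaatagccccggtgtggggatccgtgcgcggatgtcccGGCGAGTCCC
Nfkb2 start: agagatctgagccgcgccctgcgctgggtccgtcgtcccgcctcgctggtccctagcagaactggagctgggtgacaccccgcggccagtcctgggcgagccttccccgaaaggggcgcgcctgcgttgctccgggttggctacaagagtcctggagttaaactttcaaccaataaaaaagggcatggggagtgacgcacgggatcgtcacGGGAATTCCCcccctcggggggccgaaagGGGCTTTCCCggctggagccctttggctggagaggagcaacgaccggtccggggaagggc
Trim30a start: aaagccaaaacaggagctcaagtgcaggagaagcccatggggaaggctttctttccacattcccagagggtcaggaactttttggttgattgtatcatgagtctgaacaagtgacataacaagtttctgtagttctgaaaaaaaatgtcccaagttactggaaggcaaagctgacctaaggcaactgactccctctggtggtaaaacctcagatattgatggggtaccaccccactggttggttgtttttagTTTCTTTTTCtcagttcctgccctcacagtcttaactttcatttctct
The windows lie at chr2:91963514-91963813 (minus strand), chr7:80803282-80803581 (minus), chr7:67372809-67373108 (minus), chr19:46304487-46304786 (plus) and chr7:104446076-104446375 (minus). Their starts lie 12880, 12218, 3598, 3743 and 19068 bp inside the gene span in the same order. GC content ranged from 43.7% at Trim30a to 77.7% at Dgkz.

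The region with the Nfkb2 start (chr19:46304190-46304937) lies inside the gene of the p100 NF-kB subunit and scored 98.0 in KO IL-4, 114 in KO untreated, 74.4 in WT IL-4 and 186 in WT untreated. At Trim30a, a tripartite motif gene induced by interferon, the region chr7:104445826-104446802 scored 169 in KO IL-4, 145 in KO untreated, 100.1 in WT IL-4 and 119 in WT untreated. At Mef2a, a MADS-box factor gene, the score of chr7:67372705-67373731 was 104 in KO IL-4, 131 in KO untreated, 158 in WT IL-4 and 162 in WT untreated. When the distal regions were ranked by score within each list, Trim30a stood higher in both KO lists than in both WT lists, as 15.5% of all 2549 regions did, and Mef2a higher in both IL-4 lists than in both untreated lists, as 18.5% did. By percentile among all peaks of a list, the Mef2a region stood lower in KO IL-4 than in KO untreated (62.3 against 67.9).

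**Figure D1:**
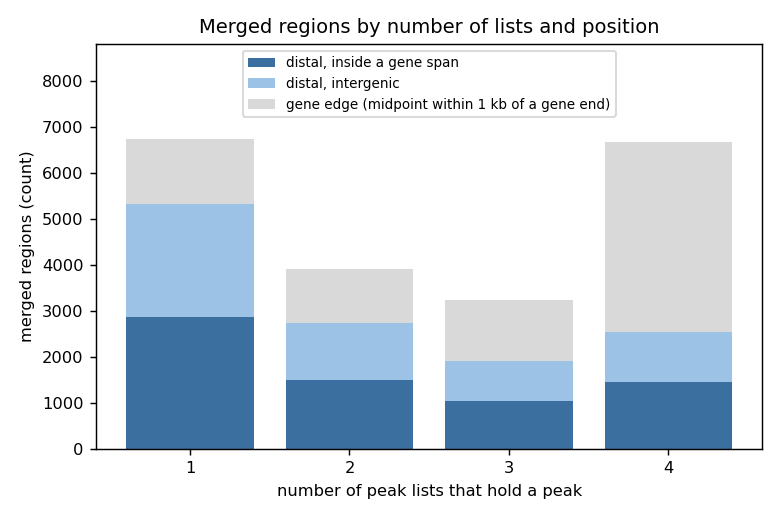
Merged regions (count, vertical axis) by the number of peak lists that hold a peak of them (horizontal axis), split into distal regions inside a gene span, distal intergenic regions and gene-edge regions. Of the 6672 regions in all 4 lists 2549 were distal, 1458 of them inside a gene span, while distal regions made up 5320 of the regions in 1 list.

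A region inside the span of a protein-coding gene was the more common class. Of the 2549, 1458 (57.2%, 55.3 to 59.1) had their midpoint inside a span and 1091 were intergenic. The inside share was 54.8% (52.5 to 57.0) of the 1905 distal regions found in 3 lists, 54.4% of the 2737 in 2 lists and 53.7% of the 5320 in 1 list. Among gene-edge regions of all 4 lists it was 51.6% (50.1 to 53.1). A region over a coding start lies inside a span by construction. On the chromosomes covered by start windows, 15.1% of distal regions of 4 lists and 3.16% of 1 list overlapped one. The 2065 regions of all 4 lists in which no annotated start was found lay inside a span in 51.5%. That share was not computed for distal regions of fewer lists, so the inside shares are not compared beyond this. Distal regions were a smaller part of the regions the more lists held them: 79.0% in 1 list, 70.1% in 2, 58.9% in 3 and 38.2% in 4.

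The median distance from the midpoint to the nearest gene end was 15510 bp, with quartiles of 5612 and 42610 bp. It was 12100 bp for regions inside a gene and 22190 bp for intergenic ones. In distal regions of 3, 2 and 1 lists the median was 17411, 17992 and 19224 bp. Within 10 kb of a gene end lay 38.8% of the regions, 320 of them between 1 and 2.5 kb, and 278 (10.9%) lay more than 100 kb away. Around the 1 kb limit the members just inside were at Colgalt1 (1005 bp), Bahd1 (1007 bp) and Fam161a (1009 bp), and the regions just outside at Zfp948 (1000 bp), Mink1 (997 bp) and Spg11 (993 bp). The regions were 699 bp wide at the median, against 798 bp for gene-edge regions and 580 bp for distal regions of 3 lists.

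Intergenic regions lay about equally on both sides of their nearest gene, and regions inside a gene lay most often near its start. Of the 857 intergenic regions whose nearest gene has a strand in the start table, 433 (50.5%, 47.1 to 53.9) lay upstream and 424 downstream. Of 1164 inside a gene with a strand, 452 (38.8%, 36.0 to 41.7) lay in the 1 of 4 equal stretches at the gene's start, 279 and 233 in the 2 middle stretches and 200 (17.2%) in the one at its end.

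Part of these regions are annotated starts that the gene span hides, because a span runs from the outermost start of a gene to its outermost end. On the chromosomes covered by the start windows, 369 of 2446 regions (15.1%, 13.7 to 16.6) overlapped the start window of a protein-coding transcript and 152 (6.21%) that of a long noncoding RNA, with 37 counted in both. Among distal regions of 3 lists a coding start was found in 7.71%, of 2 lists in 5.88% and of 1 list in 3.16%. The 103 regions on chromosome 18 were not analysed here for starts. Of the regions with a coding start, 367 held one of the gene they were assigned to.

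The regions with a coding start stood higher in every list than the 2065 in which no annotated start was found. Their median within-list percentile, where 100 is the highest score of a list, was 68.1 in KO IL-4, 77.8 in KO untreated, 64.7 in WT IL-4 and 81.0 in WT untreated. The 2065 had 55.1, 62.2, 53.4 and 70.6 in the same order, and 51.5% of them (49.3 to 53.7) lay inside a gene. They include the 103 regions on chromosome 18, which were not analysed for starts. That every region with a coding start lies inside a span follows from how spans are drawn.

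Start windows in distal regions resembled those in gene-edge regions in base composition. The 391 coding windows wholly inside a distal region had a median GC content of 63.3%, the 3937 in gene-edge regions of all 4 lists 63.0%, and all 21237 coding windows 56.3%. The GC box, the site of Sp1-family factors, was in 71.1% (66.3 to 75.5), 75.7% and 46.2% of the 3 sets in that order. The NF-kB motif was in 29.9%, 27.2% and 23.1%, the C/EBP motif in 5.37%, 5.36% and 2.85%, and the PU.1 motif GAGGAAGT in 3.58%, 3.30% and 3.13%. Of the other motifs, AP-1 (TGANTCA) was in 5.12%, 3.81% and 6.99%, STAT6 (TTC and GAA with 4 bases between them) in 4.09%, 4.67% and 6.34%, and IRF in 2.56%, 2.36% and 3.34%. The E-box CACGTG was in 8.70%, 11.2% and 7.84%, RUNX (TGTGGTTT) in 0.512%, 0.762% and 1.61%, and the CTCF motif in 0%, 0% and 0.00942%. These windows are starts of transcripts and not a sample of the distal regions. A match is only a match of letters, on either strand, and 1 stretch can hold several motifs.

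Small RNA genes were among the annotated features. A tRNA gene lay in 26 of the 2549 regions (1.02%, 0.667 to 1.49), and these held 35 of the 408 annotated tRNA genes (8.58%). In distal regions of 3, 2 and 1 lists the share with a tRNA gene was 0.787%, 0.475% and 0.320%. One region, chr1:171063606-171066093 at Fcgr3, the gene of a low-affinity IgG receptor, held 4 tRNA genes and the microRNA gene Mir6546, and scored 148 in KO IL-4, 199 in KO untreated, 118 in WT IL-4 and 122 in WT untreated. Its midpoint lay 1066 bp inside the start of the Fcgr3 span, and the region, 2488 bp wide, ran past that start. A region upstream of Irf1, the gene of an interferon regulatory factor, held the microRNA gene Mir7671. The mature sequences of both microRNAs, from RefSeq for GRCm38.p6, are shown with the seed, bases 2 to 8, in capitals.
mmu-miR-6546-3p: gAGCGAAGcccaagcgccaga
mmu-miR-6546-5p: aGGCGCCUcugagcuugugcuugu
mmu-miR-7671-3p: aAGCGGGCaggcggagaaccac
mmu-miR-7671-5p: aGGCUCCGcucuggcuagcuucc
The 4 seeds differ from each other, and so do all 10 seeds of the 7 microRNA hairpins with a sequence that overlapped a region. Long noncoding RNA genes overlapped 406 regions (15.9%), and 753 (29.5%) overlapped no annotated gene of any kind.

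Within each list the distal regions of all 4 lists scored below gene-edge regions of all 4 lists and above distal regions of fewer lists. Their median percentile was 57.8 in KO IL-4, 65.0 in KO untreated, 55.6 in WT IL-4 and 72.4 in WT untreated. Gene-edge regions had 71.6, 79.4, 70.6 and 83.8, and distal regions of 3 lists 29.9, 37.8, 29.3 and 47.2, in the same order. Scores of distal regions were higher the more lists held them, so presence in all 4 lists, which chose the regions, goes with the score. A score of 100 or more in every list was reached by 736 regions (28.9%), of 200 or more by 150, and of 500 or more by 41 (1.61%).

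**Figure D2:**
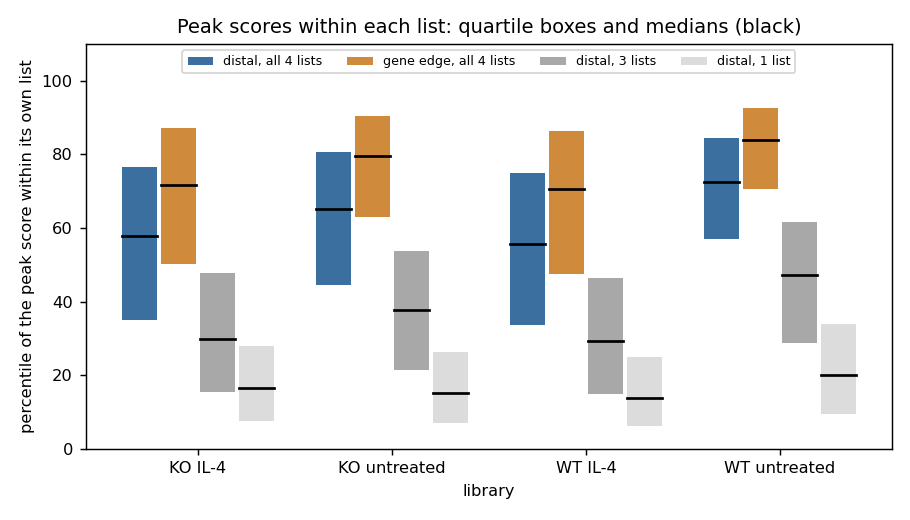
Percentile of the authors' peak score within its own list (vertical axis, 0 to 100) for each library (horizontal axis); boxes span the quartiles over regions and black lines are medians. In every library distal regions of all 4 lists (medians 57.8, 65.0, 55.6 and 72.4 from left to right) lie between gene-edge regions of all 4 lists and distal regions of 3 lists.

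At the top of the scores the order of distal and gene-edge regions was the opposite. Of the 45 regions that reached a score of 500 in every list, 41 were distal and 4 gene-edge. The 41 were intergenic in 73.2% (57.1 to 85.8), against 42.3% (40.4 to 44.3) of the other 2508 distal regions. Their median distance to a gene end was 61082 bp, and 23 of them overlapped no annotated gene. Of the 41, 6 had the highest score, 3100, in all 4 lists.

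The 6 lay at chr1:24611312-24616445, over the pseudogenes Gm10222 and Gm10925, at chr2:22586984-22590653 inside Myo3a (a myosin gene), at chr2:98666005-98667632, at chr9:35304998-35305955 over the long noncoding RNA gene Gm33838, at chr12:97061206-97062092 and at chr14:19415454-19419800. The one on chromosome 2 that is intergenic was 1035146 bp from Lrrc4c, a synaptic adhesion gene and its nearest. A region at chr17:39842740-39849035, over Rn18s-rs5, which is named as a ribosomal RNA related sequence, was 6296 bp wide and scored 1153 in KO IL-4, 1545 in KO untreated, 1501 in WT IL-4 and 1548 in WT untreated. No source used here gives how reads that map to several places were treated, and its part in these scores was not tested. Without the 41 regions the share inside a gene was 57.7% and 73 genes were given at least 3 regions, against 57.2% and 77 with them.

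There were 9 regions more than 1000 kb from any protein-coding gene. The region farthest from any protein-coding gene was 2137593 bp from Cntnap5b and scored 111 in KO IL-4, 55.1 in KO untreated, 162 in WT IL-4 and 323 in WT untreated. Next were regions 2102499 bp from Pcdh9 (a protocadherin), 1812062 and 1765904 bp from G6pd2 and 1642197 bp from Pcdh18 (another protocadherin). The nearer of the G6pd2 regions, chr5:60042575-60043303, scored 1461 in KO IL-4, 1657 in KO untreated, 1351 in WT IL-4 and 1743 in WT untreated, while the Pcdh18 region scored 72.7 in KO IL-4, 65.3 in KO untreated, 61.5 in WT IL-4 and 94.8 in WT untreated. Among the far regions there were thus both high and low scores. On chromosome Y, 11 of 17 distal regions were found in all 4 lists, against 17.5% (chromosome 15) to 25.5% (chromosome 18) on the other chromosomes.

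Each region was assigned to 1 protein-coding gene, the one whose span holds its midpoint or else the nearest. In this way 2125 of 21883 genes (9.71%) were given at least 1 region, 327 at least 2 and 77 (0.352%) at least 3. Genes with several regions were long ones: the median span was 110.5 kb for the 77, 47.6 kb for the 2125 and 17.2 kb for all genes. The territory of a gene, here its span plus the gap to each neighbouring span up to the middle of the gap, was 384 kb, 125 kb and 51.4 kb in the same order. Nothing was added beyond the outermost gene of a chromosome, so the territories of genes there, such as Olfr161, Csf2ra and Cr2, are shorter than the stretch from which they were given regions. The genes given 5 regions were Tcte2, LOC665918 on chromosome Y and Zswim6.

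There were 14 genes given 4 regions. Ptprc encodes the leukocyte phosphatase CD45 and Csf2ra the alpha chain of the GM-CSF receptor. Itpkb encodes an inositol trisphosphate kinase, Rbpj the DNA-binding effector of Notch, Tiam1 an activator of the GTPase Rac, and Arid1b and Chd2 chromatin remodelling proteins. The others were Eea1 (early endosome tethering), Snx5 (a sorting nexin), Pisd (phosphatidylserine decarboxylase), Nenf, Tex14, Olfr161 and Gm52481. Each Tex14 region overlapped an annotated small RNA gene, Rnu3b1, Rnu3b2, Rnu3b3 or Rnu3b4.

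**Figure D3:**
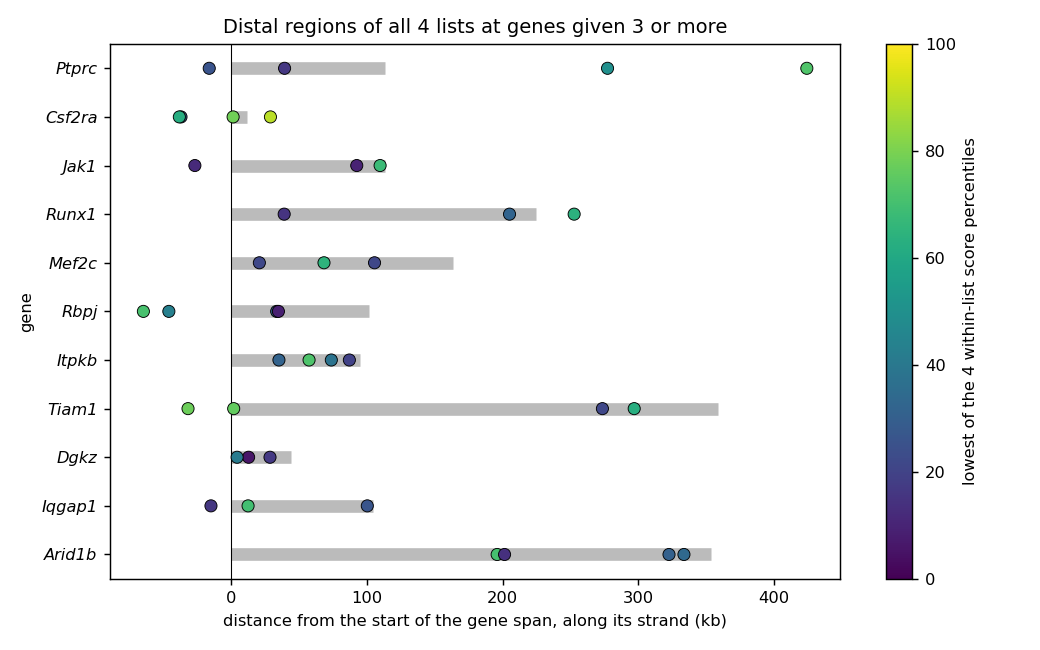
Distal regions of all 4 lists (circles) along 11 genes given at least 3 of them; the horizontal axis is the distance from the start of the gene span along its strand in kb, grey bars are gene spans, and colour is the lowest of the 4 within-list score percentiles. At Itpkb and Arid1b every circle lies within the span, while at Ptprc 1 circle lies upstream and 2 beyond the end.

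At Ptprc the regions lay inside the gene, upstream of it and far beyond its end. The highest by its lowest percentile was chr1:137751290-137752085, 311172 bp past the end, with 154 in KO IL-4, 171 in KO untreated, 222 in WT IL-4 and 159 in WT untreated. The region inside the gene, chr1:138136252-138136933, had 71.4 in KO IL-4, 59.5 in KO untreated, 90.3 in WT IL-4 and 227 in WT untreated. Their lowest within-list percentiles were 72.6 for the far region and 16.2 for the inner one. The gene assignment is by distance only, so a far region may belong to another gene.

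Csf2ra, a short gene near the end of chromosome 19, had regions on both sides. The downstream one, chr19:61199305-61200120, scored 203 in KO IL-4, 257 in KO untreated, 189 in WT IL-4 and 326 in WT untreated, and the one 1230 bp inside the start, chr19:61226459-61228004, scored 146 in KO IL-4, 169 in KO untreated, 138 in WT IL-4 and 194 in WT untreated. Upstream, chr19:61266318-61267404 scored 149.6 in KO IL-4, 236 in KO untreated, 149.7 in WT IL-4 and 127 in WT untreated and its neighbour chr19:61265268-61266001 65.5 in KO IL-4, 79.2 in KO untreated, 65.4 in WT IL-4 and 85.2 in WT untreated. Of the 4 the downstream region ranked highest, and its lowest percentile was 89.8.

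Itpkb had all 4 regions inside the gene, as did Arid1b. At Itpkb, chr1:180387269-180387929 scored 152 in KO IL-4, 211 in KO untreated, 121 in WT IL-4 and 253 in WT untreated, and chr1:180417030-180417576, the weakest, 60.1 in KO IL-4, 75.3 in KO untreated, 64.5 in WT IL-4 and 104 in WT untreated. Arid1b, which encodes a subunit of the SWI/SNF chromatin remodeller, had 119.6 in KO IL-4, 249 in KO untreated, 161 in WT IL-4 and 269.9 in WT untreated at chr17:5189564-5190687. Its region chr17:5327369-5328225 had 70.6 in KO IL-4, 168 in KO untreated, 108 in WT IL-4 and 233 in WT untreated.

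Tiam1 had a region 1663 bp inside its start, chr16:90143422-90144452, with 196 in KO IL-4, 365 in KO untreated, 130.1 in WT IL-4 and 309.8 in WT untreated. Another, 32001 bp upstream at chr16:90177203-90177999, had 138 in KO IL-4, 200.3 in KO untreated, 154 in WT IL-4 and 246 in WT untreated. At Rbpj the strongest region lay 64898 bp upstream, chr5:53490437-53491326, and had 121 in KO IL-4, 236 in KO untreated, 119 in WT IL-4 and 236 in WT untreated. At Chd2 it lay 16932 bp outside the gene, chr7:73558196-73559161, and had 344 in KO IL-4, 373 in KO untreated, 205 in WT IL-4 and 334 in WT untreated. The lowest within-list percentile of these regions was 75.8 and 77.6 at Tiam1, 71.0 at Rbpj and 91.7 at Chd2.

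Few regions lay in dense runs. With a gap of at most 12500 bp between neighbours, 2321 regions stood alone, 100 runs held 2 regions, 8 held 3 and 1 held 4. The run of 4 spanned 20.8 kb at Pisd, with scores from 72.3 to 124 in KO IL-4, 57.5 to 116 in KO untreated, 60.7 to 151 in WT IL-4 and 80.8 to 94.1 in WT untreated. Runs of 3 lay wholly inside Tnfrsf1b, the gene of TNF receptor 2, and inside Slc39a10, a zinc transporter gene. The other runs of 3 were at Atg4c (an autophagy protease), Nenf, Gm40035, 9230019H11Rik, LOC665918 and Lrrc4c.

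The strongest region of the Slc39a10 run, chr1:46873357-46874236, scored 163 in KO IL-4, 239 in KO untreated, 184 in WT IL-4 and 226 in WT untreated. In the Tnfrsf1b run, chr4:145240598-145241522 scored 59.0 in KO IL-4, 205 in KO untreated, 112 in WT IL-4 and 238 in WT untreated and chr4:145221840-145222567 62.7 in KO IL-4, 69.8 in KO untreated, 52.6 in WT IL-4 and 214 in WT untreated. The third region of Tnfrsf1b, chr4:145233605-145234424, scored 104 in KO IL-4, 90.1 in KO untreated, 57.4 in WT IL-4 and 135 in WT untreated. The lowest within-list percentile was 84.3 for the Slc39a10 region, and 17.9, 5.95 and 15.0 for the Tnfrsf1b regions in the order given.

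Macrophage transcription factor genes were given distal regions of all 4 lists more often than the genes of any other of the 24 lists examined. Of 25 such genes 15 (60.0%, 38.7 to 78.9) had at least 1, against 9.71% of all protein-coding genes. They had 21 regions, 3 each at Mef2c (a MADS-box factor) and Runx1 (a haematopoietic factor) and 2 each at Zeb2 and Ets2. Spi1 and Cebpa, which encode PU.1 and C/EBP alpha, had none, and neither did Irf5, Fli1, Elf1, Etv6, Nfil3, Tfe3 and Tfec. The genes of this list also have large territories, 179 kb at the median against 51.4 kb for all genes. Of the 127 distal regions of any list assigned to these genes, 16.5% (10.5 to 24.2) were in all 4 lists, against 20.4% (19.7 to 21.1) of all 12511 distal regions. With only peaks of score 100 or more, 5 of the 25 genes had a region.

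**Figure D4:**
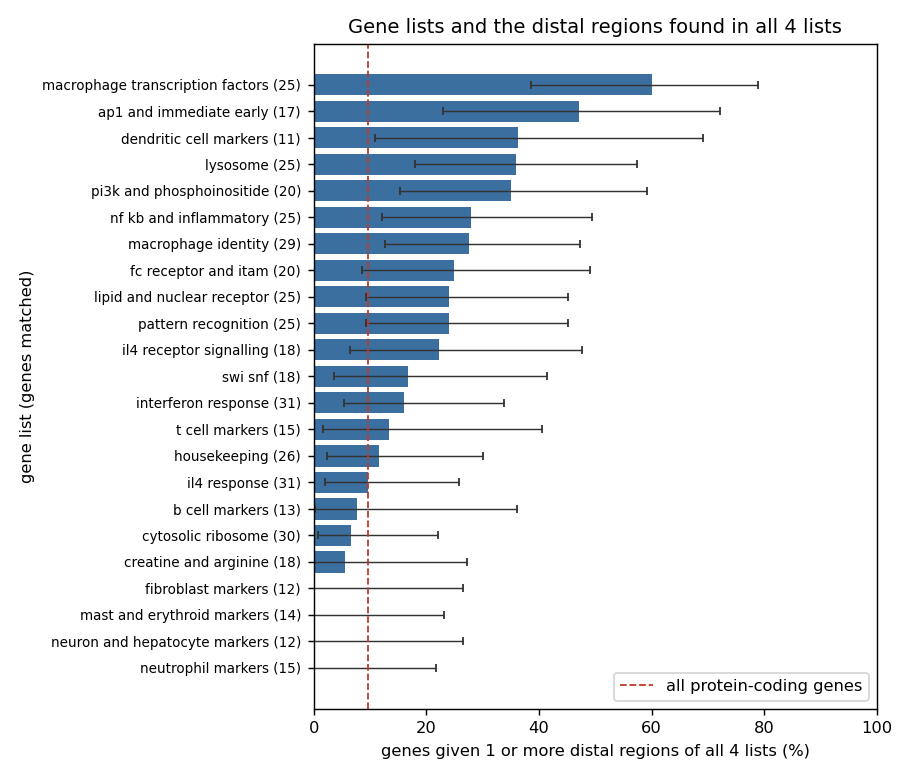
Percentage of the genes of each list shown that were given 1 or more distal regions of all 4 lists (horizontal axis), with the number of genes matched in brackets; whiskers are exact 95% intervals for counting error and the dashed line is the 9.71% of all protein-coding genes. Macrophage transcription factors stand highest with 60.0%, and 4 lists of markers of other cells stand at 0%.

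The region with the highest scores in this list was 5722 bp downstream of Mef2d, chr3:88177142-88178485, with 258 in KO IL-4, 312 in KO untreated, 198 in WT IL-4 and 367 in WT untreated. At Mef2c, chr13:83571916-83572537 had 144 in KO IL-4, 162 in KO untreated, 106 in WT IL-4 and 169 in WT untreated. Runx1 had a region 27966 bp beyond its end, chr16:92573043-92573958, with 116 in KO IL-4, 155 in KO untreated, 112 in WT IL-4 and 131 in WT untreated. The lowest within-list percentile of the 3 regions was 91.0 at Mef2d, 64.5 at Mef2c and 63.9 at Runx1.

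Zeb2, which encodes a zinc-finger repressor needed in tissue macrophages, had chr2:45049194-45049880 inside the gene with 134 in KO IL-4, 136 in KO untreated, 119.5 in WT IL-4 and 247 in WT untreated. Maf, the gene of a bZIP factor of macrophages, had chr8:115650143-115650786, 52789 bp away, with 110.4 in KO IL-4, 153 in KO untreated, 68.2 in WT IL-4 and 175 in WT untreated. Klf4, a zinc-finger factor gene, had chr4:55650929-55651699, 118839 bp upstream, with 103 in KO IL-4, 153 in KO untreated, 74.5 in WT IL-4 and 169 in WT untreated. Their lowest within-list percentile was 69.8 at Zeb2, 31.9 at Maf and 39.4 at Klf4.

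Cebpb, the gene of C/EBP beta, was assigned chr2:167759773-167760465, 69687 bp downstream, with 126 in KO IL-4, 216 in KO untreated, 69.7 in WT IL-4 and 213 in WT untreated. Irf8, which encodes an interferon regulatory factor of the macrophage lineage, had chr8:120715913-120716483, 20160 bp upstream, with 78.8 in KO IL-4, 89.5 in KO untreated, 58.9 in WT IL-4 and 126 in WT untreated. The remaining genes of the list with a region, Mitf, Tfeb, Ikzf1, Bach1, Klf6 and Mef2a, had 1 each.

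AP-1 and immediate early genes came next, with 8 of 17 (47.1%, 23.0 to 72.2), against 9.71% of all protein-coding genes. Fos, the gene of an AP-1 subunit, had chr12:85454945-85455813, 18511 bp upstream, with 210.1 in KO IL-4, 334 in KO untreated, 156 in WT IL-4 and 439 in WT untreated. Its second region, chr12:85485776-85486423, 8825 bp downstream, had 65.1 in KO IL-4, 134 in KO untreated, 60.6 in WT IL-4 and 164 in WT untreated. By place among the regions, 1 of the 11 regions of this list, at Junb, stood higher in both IL-4 lists (18.5% of all regions did). By within-list percentile the Junb region stood lower in KO IL-4 than in KO untreated (63.8 against 69.2). By place, 3 of 11, both at Fos and 1 at Fosl2, stood higher in both untreated lists (19.1% of all regions did). Fosl2 and Atf3 also had 2 regions each, and Fosb, Jun, Junb, Jund and Batf had 1 each.

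Lysosomal genes had a region in 9 of 25 (36.0%) and phosphoinositide genes in 7 of 20 (35.0%), against 9.71% of all protein-coding genes. Iqgap1 and Elmo1 are in neither list. Iqgap1 had 3 regions, of which chr7:80802845-80803741, the one with the printed start, scored 141 in KO IL-4, 158 in KO untreated, 116 in WT IL-4 and 153 in WT untreated. Elmo1, which encodes a partner of Dock proteins in cell movement, had chr13:20208006-20208881 with 91.2 in KO IL-4, 224 in KO untreated, 67.5 in WT IL-4 and 254 in WT untreated. Dgkz, a phosphoinositide gene, had 3 regions, the one with the printed start scoring 78.3 in KO IL-4, 107 in KO untreated, 52.5 in WT IL-4 and 124 in WT untreated. Territories of phosphoinositide genes were also larger at the median, 131 kb against 51.4 kb for all genes.

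Among lysosomal genes, Ctsb, the gene of cathepsin B, had chr14:63128853-63129499 with 75.0 in KO IL-4, 67.4 in KO untreated, 59.7 in WT IL-4 and 81.1 in WT untreated. Lgmn, the gene of the protease legumain, had a region inside and another upstream.

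Macrophage identity genes had a region in 8 of 29 (27.6%, 12.7 to 47.2), against 9.71% of all protein-coding genes. Csf1r, the M-CSF receptor gene, had 1 inside the gene, chr18:61108054-61109150, with 87.9 in KO IL-4, 158 in KO untreated, 139 in WT IL-4 and 101 in WT untreated. Cd36, a scavenger receptor gene, had chr5:17879825-17880538 with 116 in KO IL-4, 198 in KO untreated, 117 in WT IL-4 and 333 in WT untreated and a weaker one. Itgam, the gene of CD11b, had chr7:128050663-128051217, 11700 bp upstream, with 50.6 in KO IL-4, 125 in KO untreated, 70.3 in WT IL-4 and 158 in WT untreated, which is close to the lower limit in KO IL-4. The other genes of the list with a region were Ptprc, Sirpa, Lgmn, Fcgr3 and Cd63, while Adgre1, Cd68, Lyz2, Cd14, Mertk and Cx3cr1 were among those with none.

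Markers of neutrophils, of mast and erythroid cells, of fibroblasts, and of neurons and hepatocytes had none (0 of 15, 14, 12 and 12 genes). The upper exact bounds were 21.8%, 23.2%, 26.5% and 26.5% in the same order, against 9.71% of all protein-coding genes. These lists are thus too short to show a share below that of all genes. T cell markers had a region in 2 of 15 (Gata3 and Il7r), B cell markers in 1 of 13 (Cr2) and dendritic cell markers in 4 of 11 (36.4%, 10.9 to 69.2), among them Cd209a and Tcf4. The Cr2 region, chr1:195241312-195242001, lay 64776 bp upstream and was one of the highest of all with 559 in KO IL-4, 632 in KO untreated, 605 in WT IL-4 and 744 in WT untreated.

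Of 31 genes of the IL-4 response 3 were given a region (9.68%, 2.04 to 25.8), against 9.71% of all genes. Of the 51 distal regions of any list assigned to them 5.88% (1.23 to 16.2) were in all 4 lists, against 20.4% (19.7 to 21.1) of all distal regions. The rule leaves out any region with no peak in an untreated list, so this share is described and supports nothing. Regions of the same gene are also not independent. Flt1, a VEGF receptor gene, had chr5:147611201-147611803 with 296 in KO IL-4, 289 in KO untreated, 227 in WT IL-4 and 186 in WT untreated. Kdm6b, a histone H3 lysine demethylase gene, had chr11:69418654-69419386 with 89.4 in KO IL-4, 115 in KO untreated, 94.6 in WT IL-4 and 185 in WT untreated. Cd209a, a C-type lectin gene, had chr8:3754242-3754791 with 69.5 in KO IL-4, 78.8 in KO untreated, 68.8 in WT IL-4 and 84.0 in WT untreated. By place among the regions, 2 of the 3, at Flt1 and Cd209a, stood higher in both IL-4 lists than in both untreated lists. So did 18.5% of all 2549 regions, while that at Kdm6b did not. By within-list percentile the Cd209a region stood lower with IL-4, 32.5 in KO and 32.7 in WT, against 38.2 and 38.7 untreated.

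Arg1 (arginase), Mrc1 (the mannose receptor), Retnla and Chil3, all used as markers of IL-4 activation, had none, and neither did Nos2, Stat6 and Il4ra. Arg1 had 2 distal regions and Mrc1 and Il4ra 3 each, all in fewer than 4 lists. The region nearest to Stat6 lay 6959 bp from it and was assigned to Nab2.

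Among signalling genes of the IL-4 receptor 4 of 18 had a region (22.2%, 6.41 to 47.6), against 9.71% of all protein-coding genes. Jak1, a kinase of the receptor, had 3, the strongest at chr4:101155295-101156127 with 203 in KO IL-4, 203 in KO untreated, 127 in WT IL-4 and 142 in WT untreated. Pik3r1, the gene of a regulatory subunit of PI3-kinase, had chr13:101540224-101541074, 140112 bp away, with 95.4 in KO IL-4, 299 in KO untreated, 56.3 in WT IL-4 and 187 in WT untreated. Irs2, the gene of an adaptor of the IL-4 receptor, had chr8:10945821-10946546 with 55.6 in KO IL-4, 114 in KO untreated, 85.8 in WT IL-4 and 148 in WT untreated. Of the creatine and arginine genes only Oat, which encodes ornithine aminotransferase, had one, 1 of 18 (5.56%, 0.141 to 27.3, against the same 9.71%). The Oat region scored 53.0 in KO IL-4, 133 in KO untreated, 60.8 in WT IL-4 and 155 in WT untreated.

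Inflammatory and NF-kB genes had a region in 7 of 25 (28.0%, 12.1 to 49.4), pattern recognition genes in 6 of 25 (24.0%) and interferon response genes in 5 of 31 (16.1%). The share of all protein-coding genes was 9.71%. Il1b, the gene of interleukin 1 beta, had chr2:129373246-129373730, 2324 bp upstream, with 58.1 in KO IL-4, 66.9 in KO untreated, 52.9 in WT IL-4 and 136 in WT untreated. Nfkbiz, which encodes an atypical inhibitor of NF-kB, had chr16:55698376-55699023 with 118 in KO IL-4, 176 in KO untreated, 161 in WT IL-4 and 216 in WT untreated. The Irf1 region with Mir7671, chr11:53763365-53764303, 6180 bp upstream, had 90.4 in KO IL-4, 195 in KO untreated, 89.6 in WT IL-4 and 286 in WT untreated.

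Of the remaining lists, lipid and nuclear receptor genes had a region in 6 of 25 (24.0%), Fc receptor and ITAM genes in 5 of 20 (25%), SWI/SNF remodeller genes in 3 of 18 (16.7%), housekeeping genes in 3 of 26 (11.5%) and cytosolic ribosome genes in 2 of 30 (6.67%). The exact interval of each of these remaining lists holds the 9.71% of all protein-coding genes. It ran from 9.36 to 45.1 for lipid and nuclear receptor genes and from 0.818 to 22.1 for cytosolic ribosome genes. Over all lists 102 of 474 genes had at least 1 region, against 2125 of all 21883 protein-coding genes (9.71%).

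To see whether regions held their place between libraries, the 2549 regions were ordered by score within each list, place 1 being the highest. Such places cannot show a change in accessibility, since each list has its own depth. The order was most alike between KO untreated and WT untreated, with a Spearman correlation of 0.715 over the 2549 regions, while the other 5 pairs of libraries lay between 0.598 and 0.636. KO untreated and WT untreated also had the longest lists, 13714 and 17339 peaks, and the part of list length was not tested. The difference in place between IL-4 and untreated had a Pearson r of 0.12 between KO and WT. That between KO and WT had an r of 0.018 between IL-4 and untreated. Regions share their libraries and are not independent, so no p-value is given.

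Both IL-4 lists placed 471 regions (18.5%) above both untreated lists, and both untreated lists placed 487 (19.1%) above both IL-4 lists. Both KO lists placed 395 (15.5%) above both WT lists, and both WT lists 414 (16.2%) above both KO lists. Any order of the lists puts some regions in each of these groups. The counts therefore do not mark regions that respond to IL-4 or to the genotype, which was not tested. Regions with a coding start were placed above in IL-4 in 43 of 369 cases (11.7%, 8.56 to 15.4) and above in untreated in 84 (22.8%, 18.6 to 27.4). For the 2065 in which no start was found, chromosome 18 included, these were 419 (20.3%) and 385 (18.6%). For the 129 regions of list genes they were 16 (12.4%, 7.26 to 19.4) and 30 (23.3%, 16.3 to 31.5), read beside 18.5% and 19.1% of all regions.

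**Figure D5:**
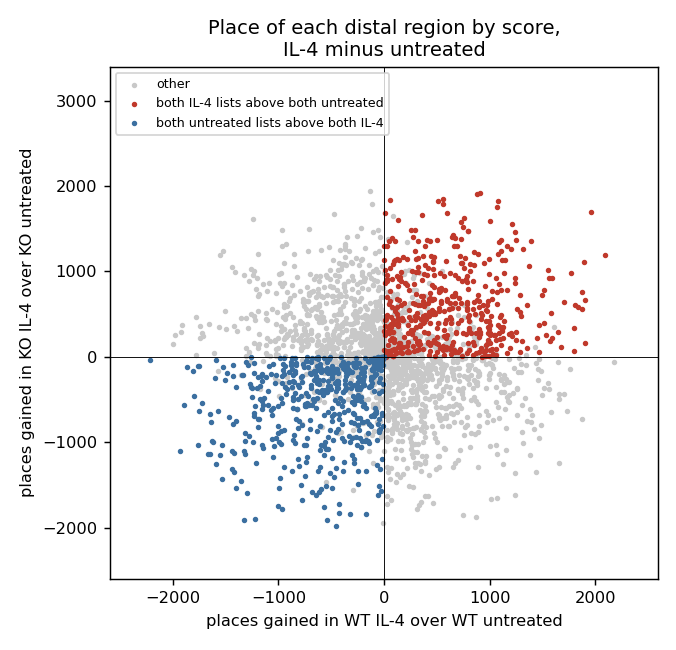
Places gained by each distal region of all 4 lists in KO IL-4 over KO untreated (vertical axis) and in WT IL-4 over WT untreated (horizontal axis), places being ranks by score among the 2549 regions within a list. Red points are the 471 regions that both IL-4 lists placed above both untreated lists, blue points the 487 placed the other way, and the points form a nearly round cloud (r = 0.12).

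Of the 21 regions of macrophage transcription factor genes, both KO lists placed 10 above both WT lists (47.6%, 25.7 to 70.2), against 15.5% of all regions, and both WT lists placed 2 above. The 10 lay at Ets2, Mef2c and Runx1 (2 each), Ikzf1, Maf, Mef2d and Zeb2. The upper of the Ets2 regions by its lowest percentile, chr16:95827248-95827904, scored 98.6 in KO IL-4, 138 in KO untreated, 80.7 in WT IL-4 and 99.2 in WT untreated. At Ikzf1, a lymphoid and myeloid zinc-finger factor gene, chr11:11729976-11730664 scored 105 in KO IL-4, 119 in KO untreated, 65.1 in WT IL-4 and 147 in WT untreated. By within-list percentile both KO lists stood above both WT lists at Mef2d and Mef2c, but not at Ikzf1, Maf and Zeb2. At Ets2 and Runx1 this held for 1 region and not for the other. Regions of 1 gene are not independent, which the interval ignores. The same placings were counted for every gene list with a region, and this count was looked at after the values were seen.

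The regions with the largest differences in place between IL-4 and untreated lists were picked for that difference after the values were seen, so their values are examples and no result. Placed higher in the IL-4 lists, a region inside Pcnx2, chr8:125778985-125779307, scored 151 in KO IL-4, 71.7 in KO untreated, 174 in WT IL-4 and 89.1 in WT untreated. A region inside Angptl2, the gene of an angiopoietin-like protein, scored 124 in KO IL-4, 73.5 in KO untreated, 104 in WT IL-4 and 72.3 in WT untreated, and one 31484 bp from Mfhas1 129 in KO IL-4, 76.6 in KO untreated, 147 in WT IL-4 and 128 in WT untreated.

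Placed higher in the untreated lists, a region 117956 bp from Id2, the gene of an inhibitor of bHLH factors, scored 69.0 in KO IL-4, 188 in KO untreated, 63.5 in WT IL-4 and 229 in WT untreated. Another, 1709 bp from Tle3 (a corepressor), scored 66.5 in KO IL-4, 156 in KO untreated, 65.5 in WT IL-4 and 253 in WT untreated, and one inside Pdpn (podoplanin) 62.0 in KO IL-4, 151 in KO untreated, 59.5 in WT IL-4 and 201 in WT untreated.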

How the data were processed

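The data were 4 peak lists, 1 per library, of positions and scores. The submitters' processing notes name the build mm10 and the tools HOMER, MACS 1.4.2 and Bowtie2 2.2.5 without parameters or order. The peak score is the authors' deposited value. No source used here states its unit, or the treatment of reads that map to several places.

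From the lists, peaks overlapping by 1 bp were merged, and the highest-scoring peak of a list stood for a region. Gene spans were those of 21883 protein-coding genes of RefSeq for GRCm38.p6 (coordinates as in mm10). The planned motif count in the regions was replaced by one in start windows, because no genome sequence was used here. Shares carry 95% Clopper-Pearson (exact) bounds, which hold counting error alone. The 24 gene lists held 504 entries, of which 1 was not matched. The distal regions and the lists were chosen with earlier results of these data known.

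Genes named are the 25 given most regions, those of the 20 highest-ranked regions, up to 4 of each list, the 5 most distant regions, the longest runs and 13 fixed genes; others named were chosen after their values were seen. Some genes and 1 gene list are not reported here. Alternatives were a reciprocal overlap of 50%, a score of 100, lists of 9930 peaks, gene ends of 2.5 and 5 kb, the whole region, autosomes, each list not required in turn and other assignments to genes. Regions without an annotated start and regions below a score of 500 were added after seeing the data. SciPy 1.17.1, pandas 2.3.3, NumPy 2.4.6 and Matplotlib 3.10.9 ran under Python 3.11.15. On simulated data the code found 1900 of 1900 planted regions of all 4 lists.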

Additional observations from a re-analysis of the deposited data

How the results depend on the processing

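With only peaks of score 100 or more, 736 distal regions were in all 4 lists instead of 2549. Then 53.8% of them lay inside a gene (57.2% as reported), 5 genes were given at least 3 regions (77 as reported) and 27 list genes had a region (102 as reported). The number of genes given at least 3 regions was 41 with lists of equal length, 129 with the KO IL-4 list not required, 142 with the WT IL-4 list not required and 148 with gene spans extended by 50 kb. Gene ends of 2.5 kb gave 54.3% inside a gene and a median distance of 20160 bp, and gene ends of 5 kb gave 53.2%, 24311 bp and a GC box in 65% of start windows. Without regions that hold an annotated start, an alternative added after seeing the data, 51.5% lay inside a gene, the median distance was 19761 bp, and the median of the lowest of a region's 4 percentiles was 36.5 instead of 39.3. That alternative kept every region on chromosome 18, which was not analysed for starts. Under the other alternatives run, the count of regions lay between 1977 and 3386, the inside share between 55.9% and 57.7%, the median distance between 14645 and 16569 bp, the genes given at least 3 regions between 54 and 93 and the list genes with a region between 82 and 123. The larger number of regions without a required list and the larger distance with wider gene ends follow from how these alternatives are built. With lists of equal length the median percentiles were 63.4 in KO IL-4, 59.9 in KO untreated, 62.2 in WT IL-4 and 61.4 in WT untreated, so their order between libraries as reported depends on list length. No paired analysis was possible because each group held 1 library. Read depth is unknown, so absence of a peak from a list may be a matter of depth, and the score limit of the lists decides which weak regions count as open in all 4.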
